A study of Mus musculus with 21 samples.

Results

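The 7 genes described here encode enzymes, and relatives of enzymes, that make, use up or regenerate the methyl donor S-adenosylmethionine (SAM): Mat2a, Mat2b, Mtr, Mtrr, Ahcy, Ahcyl1 and Ahcyl2. They were chosen by name and are 7 of 19300 protein-coding genes of at least 2 kb in the RefSeq annotation of GRCm38.p6. The measurement was H3K36me3, trimethylation of lysine 36 of histone H3, read by sequencing of immunoprecipitated chromatin (ChIP-seq) from C2C12 cells, mouse myoblasts that can fuse into muscle cells in culture. Each gene is followed by its cover, the percent of its gene body inside called H3K36me3 peaks, in 20 libraries. The 10 wild-type (WT) libraries formed 5 groups of 2 replicates. These were day 0, day 1 and day 5 with control medium, called control day 1 and control day 5 below, and the same 2 days with methionine restriction, called restricted day 1 and restricted day 5. The lines labelled Setd2 KO, line 1 and line 2, each had 1 library in each of the same 5 conditions. All groups share the C2C12 background, and the labels give neither the methionine concentration of the media nor how the KO lines were made or whether each is a single clone. Nothing in the labels says that the replicates came from separate cultures, so p-values measure only the spread between these libraries, which may be technical.

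In the methionine cycle, methionine adenosyltransferase turns methionine and ATP into SAM. Methyltransferases, among them SETD2, the enzyme that trimethylates H3K36, take the methyl group from SAM and leave S-adenosylhomocysteine, which is split to homocysteine and then remethylated to methionine. SETD2 travels with elongating RNA polymerase II, so H3K36me3 lies over the bodies of transcribed genes, usually more towards the 3′ end, and spares the promoter. The series set out to follow this mark during differentiation in control medium and under methionine restriction.

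The WT lists held 63423 to 87398 peaks over 110 to 183 Mb, and the KO lists held 127 to 64530 peaks over 0.00821 to 74.1 Mb. Restricted WT libraries had less of the genome inside peaks than the other WT libraries, and the median cover of the 9512 genes tested in WT was 45.2% to 57.1% in the 6 libraries without restriction and 28.5% to 36.4% in the 4 restricted ones. The 2 KO lists of restricted day 1 were the shortest, with 791 and 127 peaks, and the differences between WT and KO averaged over conditions are given with and without them. Depth is not known from peak lists, and cover measures how far peaks were called, not the height of the mark. Fewer cells with the mark and less of the mark per cell cannot be told apart in these bulk libraries. Group means for the body of Setd2, the targeted gene, were 49.2% to 80.6% in WT, its values were 0% to 24.0% in KO line 1 and 0% throughout line 2, and a peak there shows the mark, not whether the gene is intact. Genes of myoblasts and muscle, taken as markers of the labelled cell type, did not move alike. Myog, a transcription factor of differentiating muscle, had a mean cover of 0% at day 0 and on both restricted days. It had 71.9% at control day 1 and 92.6% at control day 5. Myod1 had 52.6% at day 0, 59.0% and 72.6% at control day 1 and day 5, and 0% on both restricted days. Des had 86.5% at day 0, 37.3% at restricted day 1 and 43.3% at restricted day 5. Acta1, Myh3, Ckm and Tnnt3 were at 0% at day 0, and Myf5 went from 11.9% there to 0% at control day 5. Of the 7 muscle genes with enough cover to test, 6 were called lower under restriction at day 1 and all 7 at day 5, where 36% and 41.5% of all genes tested were called lower, and their part in the results below was not tested. Of 10 markers of blood, endothelium, epithelium, liver and neurons, 8 had no cover in any WT group and the highest group mean was 0.219%, for Cdh1.

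Mtrr, with the widest range of group means among the 7 genes, fell in cover between day 0 and day 5 in control medium and was about as high at restricted day 5 as at day 0, while the median difference of all genes tested went the other way under restriction. When all WT lists were cut to equal length, the rise of Mtrr under restriction at day 5 was still called, the fall from day 0 was not, and Ahcy had the widest range. Mat2a was lower under restriction at day 1, as were 36% of all genes tested, and the call was lost after each library was centred on its median. Ahcy fell from day 0 to day 5 in control medium. Mat2b, Mtr and Ahcyl1 were not called between WT groups on cover as taken here, though each was called under some other settings given below, and Ahcyl2 had too little cover to be tested. In the KO lines Mat2a kept a long peak in 4 of 5 libraries of line 1, whereas Mtrr had no peak in any KO library.

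**Figure D1:**
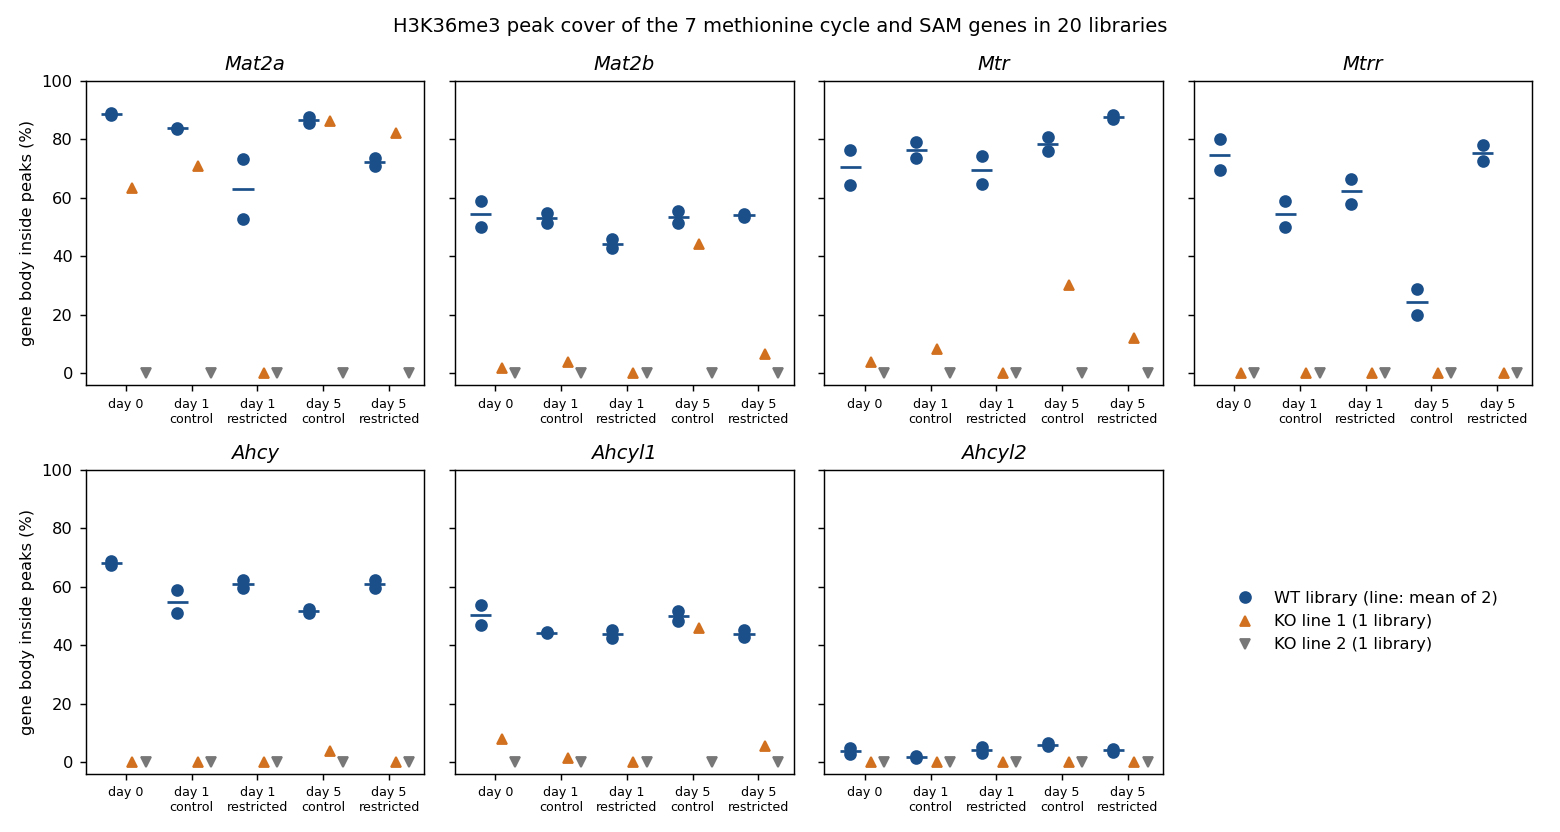
Percent of each gene body inside H3K36me3 peaks (y axis) in 5 conditions (x axis) for the 7 genes. Circles are WT libraries with a line at the mean of 2, and triangles are the single libraries of KO line 1 (upward) and KO line 2 (downward). The WT circles of Mtrr drop to 20.1% and 28.9% at day 5 in control medium, and the KO line 1 triangles of Mat2a reach 63.3% to 86.3% outside restricted day 1.

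Remethylation of homocysteine is done by MTR, methionine synthase, which carries the methyl group on cobalamin. MTRR, methionine synthase reductase, returns MTR to its active form when the cobalamin has become oxidised. Mtrr lies at chr13:68560780-68582169 on the minus strand of GRCm38.p6, a body of 21.4 kb that meets Fastkd3 head to head and shares 3 bases with it. Its cover at day 0 was 80.04% and 69.5% in the 2 WT replicates. At day 1 it was 59.1% and 49.95% in control medium, and 66.4% and 58.1% under restriction. Thus the day 1 control libraries lay below both day 0 libraries, and the day 1 media overlapped. At day 5 it was 28.9% and 20.1% in control medium, the lowest WT values of this gene, against 78.2% and 72.5% under restriction. Restricted day 5 overlapped day 0, and every other group lay apart from control day 5.

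The difference between media at day 5 was tested with limma on the cover of all 9512 genes in the 10 WT libraries. Mtrr rose by 50.8 points under restriction (SE 5.71, 95% interval 37.8 to 63.9, Benjamini-Hochberg adjusted p = 0.00023), a difference at the 99.98th percentile of all genes tested. It was the only 1 of the 6 tested genes of the set that was called. Of all genes tested 45.8% were called in this comparison, 4.32% higher and 41.5% lower, and the median difference was -9.15 points, against a median of 4.86 for the 6 genes. After subtraction of each library's median cover (centring), the calls split into 3763 higher and 1395 lower, against 411 and 3944 without it. The call for Mtrr held in 18 of 18 alternative settings, at 42.6 to 67.5 points with adjusted p between 6.59e-05 and 0.0116 in limma.

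From day 0 to day 5 in control medium Mtrr fell by 50.2 points (SE 5.71, limma adjusted p = 0.000301). Ahcy was called lower too, so that 2 of the 6 genes were called, against 27.8% of all genes tested, 15.6% lower and 12.2% higher. Centring changed the split over all genes from 1157 higher and 1484 lower to 1614 and 1299. When each WT list was shortened, by fold enrichment, to the covered length of the shortest one (lists of equal length), the fall of Mtrr was -20.9 points and was not called (limma adjusted p = 0.208). Its mean cover there was 28.8% at day 0, 7.96% at control day 5 and 62.5% at restricted day 5, so that the last was no longer close to day 0. Between day 0 and day 1 none of the 6 genes was called (0 of 6 against 6.61% of genes in limma, 0.967% higher and 5.65% lower), and Mtrr and Ahcy had unadjusted p of 0.00715 and 0.00838. The split over all genes, 92 higher and 537 lower, was 225 and 108 after centring and 83 and 113 in lists of equal length. Mtrr was 20.2 points lower in that comparison, with an adjusted p of 0.0718 in limma. That difference was -1.14 points in lists of equal length (28.8% at day 0 and 27.7% at control day 1), and it was called in 3 of 19 alternatives, as with peaks of a −log10 q of at least 3 (-37.9 points, limma adjusted p = 0.0478).

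At day 1 the effect of restriction on Mtrr was 7.72 points (95% interval -5.37 to 20.8, limma adjusted p = 0.321). It ranged from 3.15 to 33.0 points over the alternatives and was called after centring (22.9 points, limma adjusted p = 0.0047). The effect at day 5 minus that at day 1 was 43.1 points (SE 8.07, limma adjusted p = 0.019), the only call among the 6 genes, where 5.2% of all genes were called, 1.62% higher and 3.58% lower. The split of 154 higher and 341 lower over all genes was 342 and 245 in lists of equal length, 314 and 218 with peaks of a −log10 q of at least 3, and 238 and 217 without restricted day 1 replicate 1. The call for Mtrr was kept in 11 of 18 alternatives. It was lost with peaks of a −log10 q of at least 3 (27.7 points, adjusted p = 0.288 in limma), in lists of equal length (21.6 points, adjusted p = 0.484) and without any of 5 libraries, where adjusted p was 0.0793, 0.0729, 0.065, 0.086 and 0.0574 without control day 1 replicate 1, restricted day 1 replicate 2, control day 5 replicate 2, and restricted day 5 replicates 1 and 2.

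The fall of Mtrr by control day 5 was seen in bins 2 to 10, least in bin 9 (from 100% to 89.3%), while bin 1 was covered in only 1 of the 2 day 0 libraries (30.6% and 0%). With the body divided into 10 equal bins from the 5′ end (bin 1) to the 3′ end (bin 10), bins 2 to 10 had a mean cover of 64.5% to 100% at day 0. In control medium at day 5 bins 1 to 3 of Mtrr were at 0%, bins 4 to 8 at 21.3% to 40.2%, bin 9 at 89.3% and bin 10 at 11.9%. Under restriction at day 5 bin 2 stood at 70.8%, and bins 7 to 10 were at 94.6% to 100%. The first covered base of Mtrr lay 6.42 and 6.67 kb from its 5′ end in the control libraries of day 5, and 2.02 and 1.84 kb in the restricted ones. The 5′ edge thus moved 4.62 kb towards the start of the gene, while over the 6713 genes with an edge in every WT library the median shift under restriction was 1.28 kb away from it and 84.5% of genes shifted away. The longest Mtrr peaks of control day 5 were 2.45 and 2.05 kb, near the 3′ end (chr13:68563287-68565737 and chr13:68562928-68564978). Those of restricted day 5 were 9.12 and 8.86 kb (chr13:68561009-68570133 and chr13:68560615-68569469).

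**Figure D2:**
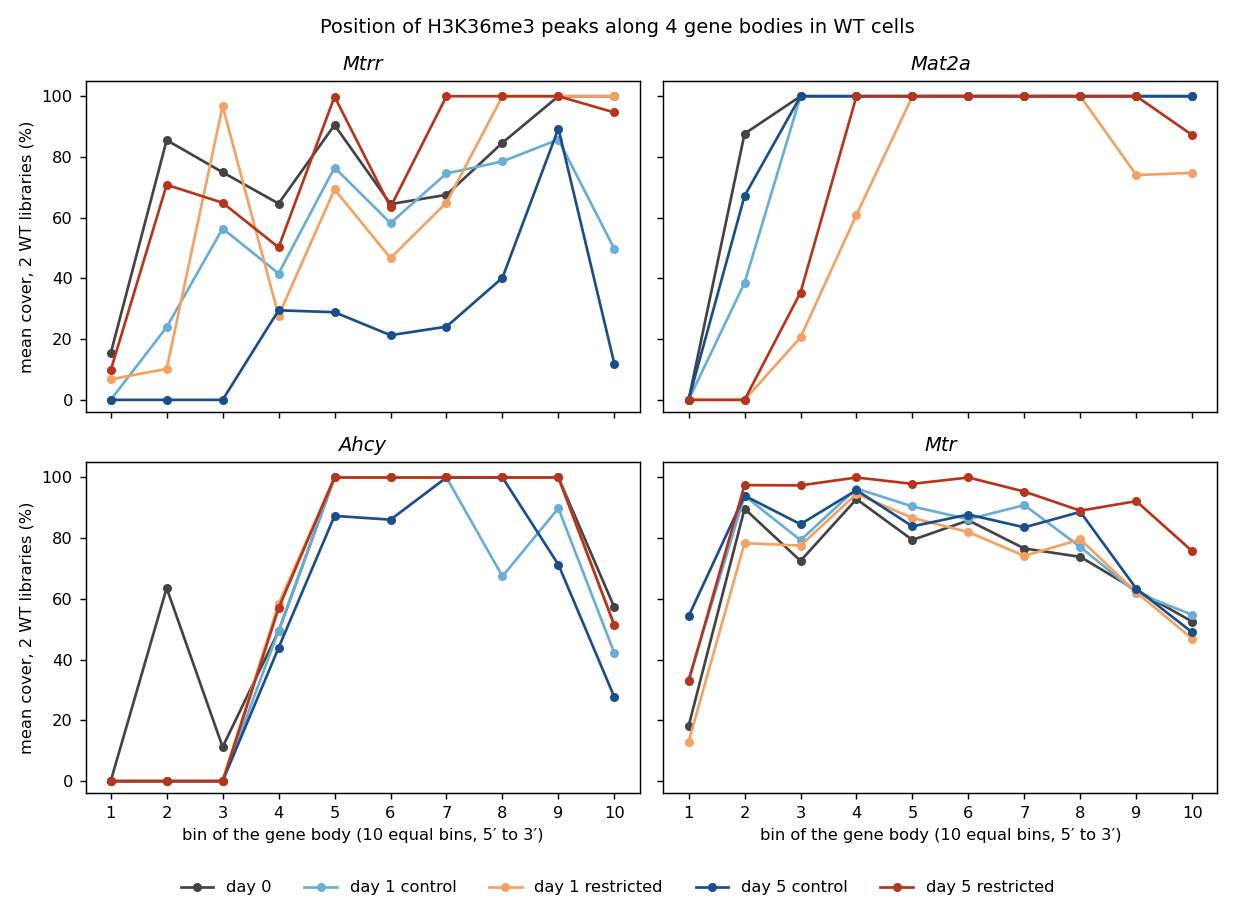
Mean cover of 2 WT libraries (y axis, percent) in each of 10 equal bins of the gene body from 5′ (1) to 3′ (10) for Mtrr, Mat2a, Ahcy and Mtr, with 1 line per condition. The control day 5 line of Mtrr runs at 0% over bins 1 to 3, and the restricted lines of Mat2a start later than the others.

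**Figure D3:**
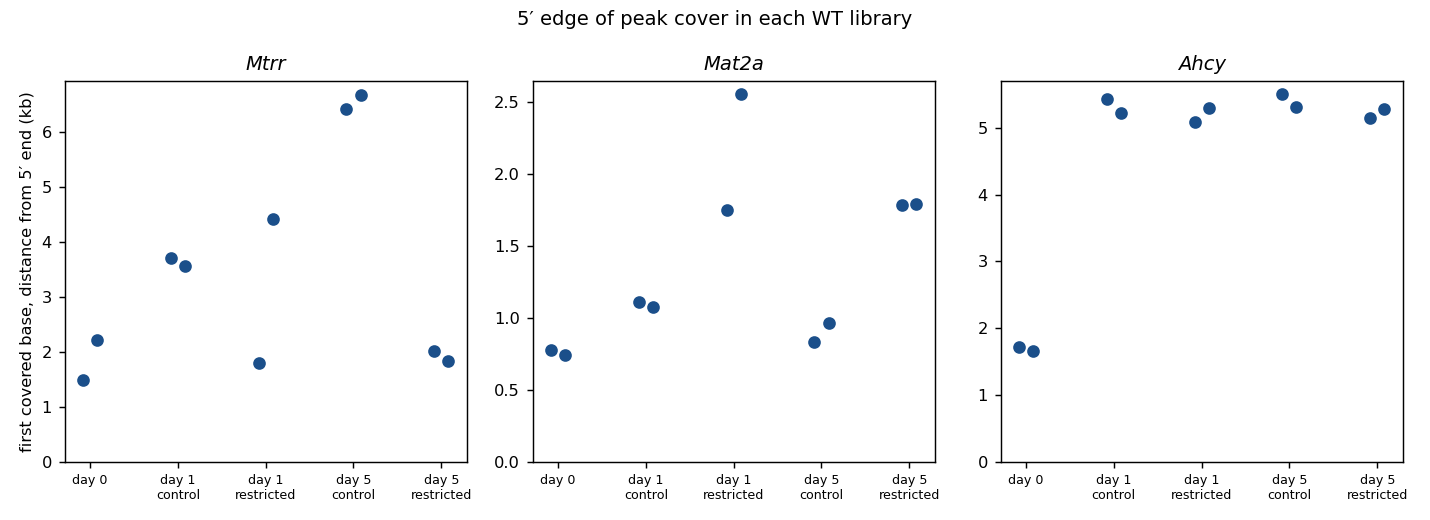
Distance in kb from the 5′ end of the gene to its first base inside a peak (y axis) in each of the 10 WT libraries by condition (x axis), for Mtrr, Mat2a and Ahcy. Mtrr is farthest at control day 5 (6.42 and 6.67 kb), Mat2a is farther in the 4 restricted libraries (1.75 to 2.56 kb) than in the others, and Ahcy is near only at day 0 (1.72 and 1.66 kb).

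Mtr, at chr13:12181331-12258199 on the minus strand and 76.9 kb long, was covered more evenly. Its values were 76.5% and 64.4% at day 0, 73.8% and 79.1% at control day 1, 74.2% and 64.8% at restricted day 1, 80.9% and 76.1% at control day 5, and 87.2% and 88.4% at restricted day 5. Only restricted day 5 stood clear of its neighbour in the order of group means, and the other 4 groups overlapped with theirs. Restriction at day 5 gave a difference of 9.29 points (95% interval -1.62 to 20.2, limma adjusted p = 0.146), which was not called. With peaks of a −log10 q of at least 3 the difference was 39.5 points and was called (limma adjusted p = 0.0124), with a mean cover of 46.2% at control day 5 and 85.7% at restricted day 5. Lists of equal length (35.8 points, adjusted p = 0.0067), centring (26.0 points, adjusted p = 0.000328) and the fit of the 4 compared libraries alone (adjusted p = 0.0288) also gave a call in limma.

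The peaks over Mtr were fewer and longer at restricted day 5. Each restricted library had 8 peaks over the gene, the longest of 14.3 and 37.8 kb, whereas the control libraries of that day had 17 and 26 peaks with the longest of 12.02 and 8.71 kb. Bin 10 of Mtr was at 75.7% there and at 46.9% to 54.8% in the other WT groups, and bin 1 was at 12.9% to 54.3%. In the comparisons between days, Mtr differed by 6.02 points from day 0 to day 1 and by 8.07 points from day 0 to day 5 (limma adjusted p = 0.467 and 0.26). Centring gave a call for both (14.5 and 10.4 points, limma adjusted p = 0.0425 and 0.0328), and so did lists of equal length for day 1 (36.3 points, adjusted p = 0.0455), whereas the day 5 difference turned to -11.4 points with peaks of a −log10 q of at least 3. Restriction at day 1 gave -6.96 points, which was not called, and 8.22 points after centring (limma adjusted p = 0.283 and 0.0543). The restriction effect on Mtr at day 5 minus day 1 was 16.3 points (limma adjusted p = 0.221), and it was called in lists of equal length (41.2 points, adjusted p = 0.0489) and with the stricter peaks (58.7 points, adjusted p = 0.0391).

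MAT2A is the catalytic subunit of the methionine adenosyltransferase found outside the liver, and MAT2B is its regulatory partner. Mat2a lies at chr6:72432796-72439556 on the minus strand, and 8.34% of its 6.76 kb body overlaps the neighbouring gene Ggcx at the 3′ end. Its cover was 88.5% and 89.1% at day 0, 83.6% and 84.1% at control day 1, and 87.7% and 85.7% at control day 5. Under restriction it was 73.2% and 52.9% at day 1 and 73.6% and 71.0% at day 5. All 4 restricted libraries lay below all 6 others, and restricted day 1 replicate 2 stood well below the rest.

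Under restriction at day 1 the cover of Mat2a fell by 20.8 points (SE 5.48, 95% interval -33.4 to -8.27, limma adjusted p = 0.0176). This was the single call among the 6 genes, where 38.4% of all genes tested were called, 36% lower and 2.38% higher, and the difference stood at the 22nd percentile. The median difference was -3.70 points for the 6 genes and -7.99 points for all genes. Over all genes the split was 226 higher and 3422 lower, and 3518 higher and 1246 lower after centring, which left Mat2a at -5.63 points and not called (limma adjusted p = 0.303). The call was also lost when only the 4 libraries compared were fitted (adjusted p = 0.0702 in limma) and without either control day 1 replicate (adjusted p = 0.0674 and 0.0759), and the difference was -10.7 points without restricted day 1 replicate 2 and -30.9 points without replicate 1.

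At day 5 the difference for Mat2a was -14.5 points (95% interval -27.0 to -1.91), which missed the threshold (limma adjusted p = 0.0606). It passed in 4 of 18 alternatives: on the arcsine scale (adjusted p = 0.039 in limma), in the fit of the 4 compared libraries alone (0.00683), and without either replicate of restricted day 1 (0.00145 and 0.00124). Centring turned its sign, to 2.22 points. From day 0, Mat2a was 4.91 points lower at control day 1 and 2.05 points lower at control day 5 (limma adjusted p = 0.613 and 0.832). The effects of restriction at day 5 and day 1 differed by 6.36 points (limma adjusted p = 0.714). That difference rested on the restricted day 1 libraries, since it was 16.5 points and called without replicate 1 (limma adjusted p = 0.0382) and -3.77 points and not called without replicate 2.

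Cover was lost at the 5′ end of Mat2a in all 4 restricted libraries, and at the 3′ end in 3 of them. In all 5 WT groups bin 1 of the Mat2a body had no cover. Bin 2 was at 87.7% at day 0, 38.5% at control day 1 and 67.2% at control day 5, and at 0% on both days under restriction. Bin 3 was at 100% in the groups without restriction and at 20.6% and 35.3% under it. Bin 10 was at 100% without restriction, at 90.5% and 59.0% in the restricted libraries of day 1 and at 100% and 74.4% in those of day 5. The first covered base of Mat2a was 0.739 to 1.11 kb from the 5′ end in the 6 libraries without restriction and 1.75 to 2.56 kb in the 4 restricted ones. The shift of 1.06 kb at day 1 was near the median of all genes, 0.917 kb, and the shift of 0.891 kb at day 5 was below the median of 1.28 kb. A single peak ran over Mat2a in 9 of 10 WT libraries, and without restriction it was 8.04 to 18.2 kb long and went on past the 3′ end of the gene towards Ggcx. Under restriction the longest peak was 3.18 to 5.20 kb.

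No WT peak reached the promoter window of Mat2a or of any other gene of the set. Its RefSeq promoter, the 250 bases before the start at chr6:72439557-72439806 on the minus strand of GRCm38.p6, is shown because the cover of the gene stops short of it in every library. Capitals mark a TATA box, TATAAA, that begins 32 bases before the start.
Mat2a promoter: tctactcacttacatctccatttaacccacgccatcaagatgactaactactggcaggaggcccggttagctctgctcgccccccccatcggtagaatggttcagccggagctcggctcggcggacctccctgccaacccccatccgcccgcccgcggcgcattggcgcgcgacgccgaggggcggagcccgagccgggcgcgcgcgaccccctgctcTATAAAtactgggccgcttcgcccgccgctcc
A match to TATAAA on either strand was found in 9.47% of 15327 promoters of this length. The Mat2a window also holds a match to CCAAT, found in 36.4% of promoters, and 3 to GGGCGG, found in 47.3%, both on either strand. The noncoding RNA gene Particl overlaps this window.

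Mat2b, at chr11:40679314-40695203 on the minus strand and 15.9 kb long, had 58.8% and 50.01% of its body covered at day 0, 54.9% and 51.5% at control day 1, 51.4% and 55.6% at control day 5 and 53.6% and 54.4% at restricted day 5. These 4 groups overlapped one another. Restricted day 1, with 45.9% and 42.9%, lay below all of them, and the difference of -8.80 points from control day 1 was not called (95% interval -18.5 to 0.896, limma adjusted p = 0.137). After centring it was 6.39 points. At day 5 the effect of restriction on Mat2b was 0.525 points (limma adjusted p = 0.938), and 17.2 points with a call after centring (adjusted p = 0.00788 in limma). Bins 1 to 4 of Mat2b had no cover in any WT group, and bin 10 had 85.3% to 100%. Against day 0 it was 1.21 points lower at control day 1 and 0.953 points lower at control day 5 (limma adjusted p = 0.896 and 0.905), and its restriction effect at day 5 minus day 1 was 9.32 points (adjusted p = 0.443).

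AHCY, adenosylhomocysteine hydrolase, splits S-adenosylhomocysteine, which would otherwise inhibit methyltransferases. Ahcy lies at chr2:155059310-155074497 on the minus strand, a body of 15.2 kb. Its cover was 68.9% and 67.4% at day 0. It was 58.8% and 51.0% at control day 1 and 62.4% and 59.5% at restricted day 1. Values at control day 5 were 52.2% and 51.1%, and those at restricted day 5 were 62.2% and 59.4%. Day 0 lay above every other group, and on each day both restricted libraries lay above both control libraries.

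Between day 0 and day 5 in control medium Ahcy fell by 16.5 points (SE 3.86, 95% interval -25.3 to -7.67, limma adjusted p = 0.0131). The call held in 15 of 18 alternatives and was lost in the fit of the compared libraries alone (adjusted p = 0.0602 in limma) and without control day 5 replicate 1 (0.0513) or replicate 2 (0.0631). In lists of equal length the difference was -59.4 points, with a mean cover of 1.31% at control day 5 and 60.7% at day 0. The longest Ahcy peaks of control day 5 had fold enrichments of 3.13 and 3.16, just under the lowest kept in those lists, 3.18 and 3.17. At control day 1 the gene was 13.2 points lower than at day 0 (limma adjusted p = 0.0786).

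Restriction effects on Ahcy were 6.08 points at day 1 (limma adjusted p = 0.25) and 9.19 points at day 5 (95% interval 0.352 to 18.03, adjusted p = 0.0845), and neither was called. After centring the day 1 effect was 21.3 points and was called (limma adjusted p = 0.00341). The day 5 effect was called with peaks of a −log10 q of at least 3 (18.3 points, adjusted p = 0.0159 in limma), in lists of equal length (59.5 points, adjusted p = 9.65e-05) and after centring (25.9 points, adjusted p = 0.00115). With the stricter peaks Mtr, Mtrr and Ahcy made up the 3 calls among the tested genes of the set, where 35.4% of 8179 genes were called, 7.46% higher and 27.9% lower. The effect of restriction on Ahcy at day 5 minus day 1 was 3.11 points (limma adjusted p = 0.803), and 53.4 points with a call in lists of equal length (adjusted p = 0.00276).

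Along Ahcy, cover sat in the 3′ part. Bins 5 to 7 were at 86.1% to 100% and bin 1 was at 0% in all 5 WT groups. Only day 0 had cover in bin 2, 63.6%, and the first covered base of Ahcy was 1.72 and 1.66 kb from the 5′ end there, against 5.08 to 5.51 kb in the 8 later libraries. The 5′ edge thus moved by 3.72 kb from day 0 to control day 5, where the median over genes was 0.0235 kb. Control day 5 was below 100% in bins 5 and 6 (87.4% and 86.1%), where the other groups stood at 100%, and at 71.3% in bin 9. Bin 10 was partly covered in every group, at 27.7% at control day 5 and 42.2% to 57.2% in the others.

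AHCYL1 and AHCYL2 resemble AHCY but are not known to do its work, and AHCYL1, also called IRBIT, binds the inositol trisphosphate receptor. Ahcyl1, at chr3:107663120-107696560 on the minus strand and 33.4 kb long, varied least of the 6 tested genes, over a range of 11.4 points in WT. It was covered to 53.8% and 46.9% at day 0, 44.5% and 44.0% at control day 1, 45.2% and 42.4% at restricted day 1, 51.6% and 48.1% at control day 5 and 45.0% and 42.9% at restricted day 5. Both groups of day 1 overlapped restricted day 5, and day 0 overlapped control day 5. Differences under restriction were -0.429 points at day 1 and -5.91 points at day 5 (limma adjusted p = 0.95 and 0.252), and between days they were -6.10 points to day 1 and -0.474 to day 5 (adjusted p = 0.371 and 0.951 in limma). Centring turned the restriction effects on Ahcyl1 to 14.8 and 10.8 points, both called (limma adjusted p = 0.00817 and 0.0282). The restriction effect at day 5 minus day 1 was -5.48 points (adjusted p = 0.648 in limma).

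The cover of Ahcyl1 began in the middle of the gene. Its bin 6 was at 39.6% to 61.7% and bins 7 to 10 at 89.9% to 100% in all 5 WT groups. Scattered peaks in the 5′ part appeared at day 0 and control day 5, so that the first covered base of Ahcyl1 was 1.88 to 7.05 kb from the 5′ end in those 4 libraries and 18.3 to 18.4 kb in the 4 restricted ones. At control day 1 the replicates differed, with 18.1 and 7.74 kb.

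Ahcyl1 was the only 1 of the 7 genes with a peak over its promoter, and this was in a KO library. The peak, from KO line 2 at control day 5, spanned 559 bases at chr3:107696583-107697141. Its fold enrichment was 2.89 and its −log10 q was 1.71, under the stricter limit of 3. It covered 228 bases of the 250 before the start (chr3:107696561-107696810, minus strand, GRCm38.p6). That RefSeq window, which the noncoding gene Gm40121 overlaps, is shown for this reason, with capitals on a palindromic cAMP response element, TGACGTCA, that begins 104 bases before the start.
Ahcyl1 promoter: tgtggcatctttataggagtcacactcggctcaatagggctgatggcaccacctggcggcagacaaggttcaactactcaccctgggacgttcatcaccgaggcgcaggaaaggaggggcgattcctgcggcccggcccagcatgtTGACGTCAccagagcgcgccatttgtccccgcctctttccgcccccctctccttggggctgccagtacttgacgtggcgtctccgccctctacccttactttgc
TGACGTCA was found in 2.12% of 15327 promoters and in 1 of the 7 here. TATAAA on either strand was in 2 of the 7, Mat2a and Ahcyl1. CCAAT was in 5 of 7 and GGGCGG in 7 of 7, while CACGTG, found in 7.29% of promoters, and TGATGNAAN, found in 2.86%, had no match in these 7 windows. The RefSeq start used for Mat2b lay 2521 bases inside its gene body, so its window is within the body. Sequence before the 5′ end of that body was not searched for peaks or motifs. In KO line 1 at restricted day 5, Mat2b cover began 0.038 kb from that 5′ end.

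Ahcyl2 is the longest of the set, 144 kb at chr6:29768379-29912310 on the plus strand. Its WT cover was 1.38% at the lowest, 4.01% at the median and 6.46% at the highest of 10 libraries. With a mean of 3.91%, under the minimum of 5%, it was left out of the tests. Its values were 4.74% and 2.76% at day 0, 1.38% and 2.02% at control day 1, 5.13% and 3.25% at restricted day 1, 6.46% and 5.35% at control day 5 and 3.46% and 4.55% at restricted day 5. Control day 5 was above and control day 1 below the groups next to them, and the peaks were short, at most 2.76 kb, and lay mostly in bins 8 to 10.

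**Figure D4:**
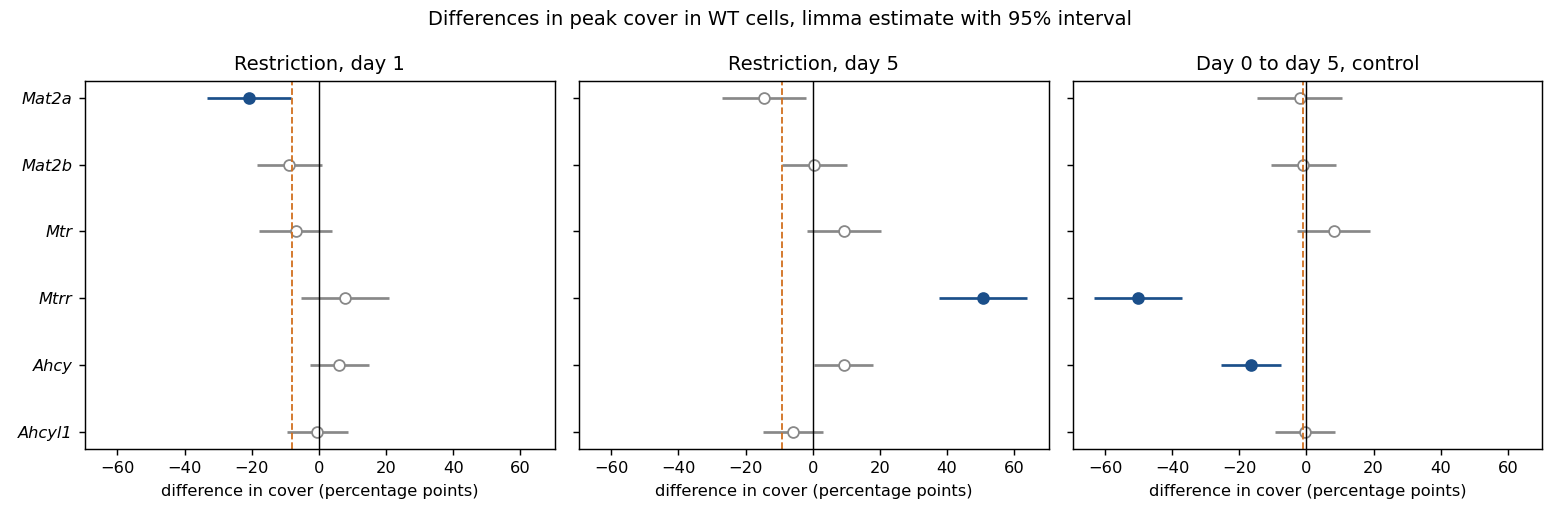
Differences in cover (x axis, percentage points) for the 6 tested genes in 3 comparisons among WT libraries, as limma estimates with 95% intervals. Filled points were called at an adjusted p under 0.05, and the dashed line is the median of all 9512 genes. Mtrr lies at 50.8 points under restriction at day 5 and at -50.2 points from day 0 to day 5, on opposite sides of 0.

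The genes whose cover ran most like each member over the 10 WT libraries were found by the root mean square difference after centring each gene on its own mean, among tested genes over 1 Mb away or on another chromosome. For Mtrr they were Hus1, Ndufaf6 and Brd9, at 6.75, 7.61 and 7.84 points, against a median of 22.8 points over all genes. For Mat2a they were Strap, Atf1 and Gtf3c6, at 1.86, 1.97 and 2.20 points with a median of 10.1. Strip2, Lmtk2 and Sdad1 followed Ahcy at 2.63 to 2.73 points, and Zbtb8a, Sppl2a and Parp4 followed Mtr at 2.74 to 3.65 points. Those of Mat2b were Ube3b, Mier3 and Glyr1 (1.90 to 2.31 points), and those of Ahcyl1 were Eif3h, Sem1 and Lrrc51 (1.38 to 1.59 points). These libraries share the differences in list length, and the likeness is a description.

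The KO lines were set beside WT to see which of these genes still carried called H3K36me3. In KO line 2 all 7 genes were at 0% in all 5 libraries. In KO line 1 Mtrr and Ahcyl2 were at 0% throughout, and Ahcy had cover in a single library, 3.65% at control day 5. The other 4 genes had cover in 4 of the 5 line 1 libraries, all but restricted day 1, where every one of the 7 was at 0%.

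Mat2a kept the most. In KO line 1 it was covered to 63.3% at day 0, 71.1% at control day 1, 86.3% at control day 5 and 82.3% at restricted day 5. These were 71.3%, 84.8%, 99.5% and 114% of the WT means of those conditions, whereas the median over genes was 0%, 0%, 19.6% and 1.24%. Among genes with a WT mean of at least 5%, these shares ranked at the 98.5th, 99.2nd, 92.8th and 92.1st percentile. Values of control day 5 lay between the 2 WT replicates, and at restricted day 5 the line 1 library lay above both of them. A single peak of 4.58 to 6.65 kb made up this cover, at control day 5 chr6:72431984-72438628. Its fold enrichment, the authors' value for each peak, ranked at the 98.9th to 99.8th percentile of all peaks in the 4 lists. The first covered base of Mat2a in line 1 was 2.48, 1.95, 0.928 and 1.11 kb from the 5′ end in these libraries, in the order above.

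For the other genes, control day 5 of KO line 1 stood out. There Ahcyl1 had 45.9% and Mat2b 44.2%, which were 92.1% and 82.6% of the WT means, and Mtr had 30.2%, or 38.4%. These shares ranked at the 89.5th, 85.4th and 63.5th percentile of genes, whose median was 19.6%. Much of this cover lay in peaks near the limit of calling: with peaks of a −log10 q of at least 3, Mat2b had 0% and Mtr 3.68% in that library, against WT means of 53.5% and 46.2%, while Ahcyl1 kept 35.4%. Mat2a was at 86.3% there with the stricter peaks too. In the remaining 3 line 1 libraries with cover, Ahcyl1 had 1.43% to 7.84%, Mat2b 1.71% to 6.71% and Mtr 4.01% to 12.2%. The control day 5 list of line 1 was also the longest of all KO lists, with 64530 peaks, and its part in these values was not tested.

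Averaged over conditions, WT minus KO was estimated with a limma fit of 20 libraries, in which the 2 KO lines were the samples of a KO group. Genes entered it by their mean cover over all 20 libraries, and a gene such as Mtrr, at 0% in every KO library, passed through WT alone, so its direction was fixed by the filter and the differences are a description. Of 8859 genes 98% were called, 97.9% higher and 0.0339% lower in WT, and without the filter 81.1% of 12931 were called. The same 2 lines recur in the 5 conditions and the fit treats their 10 libraries as independent, so that only 2 lines stand behind its errors and p-values, which may be too small. WT minus KO was 71.1 points for Mtr (SE 3.88), 58.9 for Ahcy (SE 1.45), 58.3 for Mtrr (SE 2.07), 46.2 for Mat2b (SE 4.30) and 40.4 for Ahcyl1 (SE 4.42). Mat2a had the widest error, 48.6 points with an SE of 14.6 (95% interval 16.9 to 80.4, limma adjusted p = 0.00609). Its difference was 78.9 points without KO line 1 and 18.3 points without KO line 2. It was 46.3 points without WT replicate 1 and 51.0 points without WT replicate 2, and was not called in either fit. Leaving out a replicate number leaves a single library in each of the 5 WT groups, so the spread in those fits comes from the KO lines alone. Leaving out restricted day 1 in both genotypes, chosen after the data were seen, gave 45.0 points for Mat2a (limma adjusted p = 0.0352). The same fit gave 71.5 points for Mtr, 58.4 for Ahcy, 57.3 for Mtrr, 46.7 for Mat2b and 39.5 for Ahcyl1, and called 97.2% of genes. With each line taken as 1 sample, the mean of its 5 libraries, which was also chosen after the data were seen, the adjusted p of Mat2a was 0.00248 in limma. This fit pools the spread between the 2 line means with that of the WT replicates, and the line means of Mat2a were 60.6% and 0%.

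The other genes around the cycle were taken from lists by role. Of 9 further methionine cycle genes, 4 had no cover in any WT group, namely Mat1a, Bhmt, Bhmt2 and Cbs, best known from the liver. The 2 with enough cover for the tests were Ada, which removes the adenosine that AHCY releases, and Mettl16, the RNA methyltransferase that acts on Mat2a transcripts. Ada was called lower under restriction at day 1 (-20.0 points, limma adjusted p = 0.00557) and at day 5 (-13.9 points, adjusted p = 0.0232), beside 36% and 41.5% of all genes, although after centring these were -4.79 and 2.83 points and neither was called. Mettl16 was called lower from day 0 to control day 1 (-18.6 points) and to control day 5 (-14.5 points), where 5.65% and 15.6% of all genes were called lower, and not under restriction, and these calls held in 5 of 19 and 10 of 18 alternatives. The medians of the 2 under restriction were -9.30 and -7.19 points at day 1 and day 5, beside -7.99 and -9.15 for all genes.

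Of 9 genes that handle or use cobalamin, the cofactor of MTR, 8 were tested. The list is not limited to genes that supply MTR. At day 1, 1 of the 8 was called higher under restriction and 2 lower, where 38.4% of all genes were called, 2.38% higher and 36% lower. Mmut, the mitochondrial methylmalonyl-CoA mutase that is the other enzyme using cobalamin, rose by 25.2 points. Mmachc, which processes incoming cobalamin, fell by 32.2 points, and Abcd4, a cobalamin transporter of the lysosome, fell by 21.1 points. At day 5, 1 was called higher and 4 lower, beside 4.32% and 41.5% of all genes, with Mmut at 24.0 points and Mmachc at -34.4 points (limma adjusted p = 0.00401 and 0.000337). Mmab, Mmadhc and Abcd4 were the other 3 that fell, by 24.8, 17.8 and 17.8 points. After centring Mmut was at 40.4 and 40.7 points and Mmachc at -17.1 and -17.7 points at day 1 and day 5, all called, whereas Abcd4 (-5.91 and -1.11 points), Mmab (-8.16) and Mmadhc (-1.15) were not. Between day 0 and control day 5 the called genes were Lmbrd1 (17.2 points) and Mmaa (15.8 points), both higher, beside 27.8% of all genes called, 12.2% higher and 15.6% lower, in calls that held in 14 and 5 of 18 alternatives, and Lmbrd1 turned to -4.88 points with peaks of a −log10 q of at least 3.

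Of 11 enzymes that use SAM on small molecules or proteins, 6 were tested between WT groups. Under restriction at day 1 the single call was Coq5, an enzyme of coenzyme Q synthesis, which was lower (-18.4 points, limma adjusted p = 0.0151) beside 36% of all genes. After centring Coq5 was at -3.26 points and was not called (limma adjusted p = 0.544). At day 5 limma called 0 of the 6, beside 45.8% of all genes, and Gamt, an enzyme of creatine synthesis, was the 1 with an unadjusted p under 0.05 (0.0432). Icmt, which methylates prenylated proteins, was the single call between day 0 and control day 5, at -16.8 points, beside 27.8% of all genes called and 15.6% lower. The median differences of the 6 under restriction were -10.1 points at day 1 and -8.50 at day 5.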

How the data were processed

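H3K36me3 ChIP-seq was measured in 20 C2C12 libraries, and an input library has no file that was used here. Per the labels' protocols, Drosophila chromatin was added as a spike-in and reads were single-end; spike-in scaling was not applied to these lists here. The deposited files are broad-peak lists, 1 per library, on GRCm38 per the submitters' processing notes. The peak caller, its control and filters are not given in the sources used here. The fold enrichment ratio, the −log10 p and the −log10 q of each peak are the authors' deposited values, and the deposited score was not used; the lowest −log10 q was 1.00. Peak names call the KO libraries replicates 1 and 2, whereas the labels, followed here, call them lines.

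Peaks of a library were merged, and cover was the percent of a RefSeq gene body (GRCm38.p6, 1-based coordinates, promoters from the RefSeq table of the same build, where all 7 genes matched) inside them, for protein-coding genes with bodies of 2 kb or more. Those whose cover averaged 5% or more over the libraries fitted entered limma 3.58.1 (R 4.3.3; lmFit, eBayes with trend and robust), on 10 WT libraries in 5 groups (9512 genes) or 20 libraries in 10 groups (8859 genes), with Benjamini-Hochberg adjustment over all genes and calls under 0.05. Each passing set holds 6 of the 7 genes. Cover and the fit of 10 libraries were first tested on simulated data, where the share of false calls was above the nominal level in all 5 comparisons among WT groups; the fit of 20 libraries was not simulated. Replicate numbers did not pair the WT libraries. The genes and lists were chosen with earlier results of these data known. A few genes of the lists are not reported here. Named genes are all 7 members, up to 4 called genes with the largest difference per other list and comparison, of which not all are given, and 3 like genes per tested member. Some named genes fall outside this rule: Gamt at restricted day 5, genes named for their lack of cover, and markers of cell type. Abcd4 at restricted day 5 falls outside it too and was named after its values were seen, to complete a count. Alternatives were stricter peaks, lists of equal length, centring, only the compared libraries, no filter, an arcsine scale, the part outside other genes, a replicate block and leaving out each library. Each KO line as 1 sample was added after the data were seen.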

Additional observations from a re-analysis of the deposited data

Results flagged for a closer look

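The effect of methionine restriction on the cover of Mtrr differed between day 5 and day 1 in WT cells, by 43.1 points in the interaction term of limma (adjusted p = 0.019). The call was lost in 7 of 18 alternatives, among them lists of equal length (21.6 points, limma adjusted p = 0.484) and peaks of a −log10 q of at least 3 (27.7 points, adjusted p = 0.288). At day 5 restriction added 50.8 points and at day 1 the estimate was 7.72 points, with both restricted libraries above both control libraries at day 5 and an overlap at day 1, where the effect was called after centring (22.9 points, limma adjusted p = 0.0047). The KO lines had no Mtrr cover in any library, so no effect of restriction could be measured in them.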

How the results depend on the processing

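Over all genes, the counts called moved by more than 1.5 times under these settings. From day 0 to day 1 the count was 629, and it was 333 after centring, 196 in lists of equal length and 0 with only the compared libraries in limma, where 1897 genes had an unadjusted p under 0.05; without 1 library it was 138 to 1010. From day 0 to day 5 it was 2641, and 1617 with only the compared libraries. For restriction at day 1 it was 3648, with 2291 in lists of equal length and 2356 to 3994 without 1 library. For restriction at day 5 it was 4355, with 2896 at a −log10 q of at least 3 and 2799 to 4654 without 1 library. For the difference of the effects it was 495, with 307 on the arcsine scale and 215 to 647 without 1 library.

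Of the 6 tested members, the number called from day 0 to day 1 (0) became 1 after centring, in lists of equal length, with stricter peaks and with the replicate block (3.5%, 2.35%, 9.93% and 4.9% of all genes called), and 0 to 1 without 1 library. From day 0 to day 5 (2) it became 3 after centring (30.6% of all genes), 1 in lists of equal length (25.6%) and with only the compared libraries (17%), and 1 to 2 without 1 library. For restriction at day 1 (1) it became 3 after centring (50.1%), 0 with only the compared libraries (33.3%) and 0 to 1 without 1 library. For restriction at day 5 (1) it became 2 on the arcsine scale (44.5%), 5 after centring (54.2%, most of them higher), 3 in lists of equal length, with only the compared libraries and with stricter peaks (35.6%, 51.2% and 35.4%), and 1 to 2 without 1 library. For the difference of the effects (1) it became 2 in lists of equal length (7.05%) and 0 to 2 without 1 library. Among differences called under either setting, those that reversed were Ahcyl1 (14.8 and 10.8 points) and Ada (2.83) after centring, and Lmbrd1 (-4.88) with stricter peaks. A further 26 member values called under neither setting changed sign, 9 of them after centring, such as Mat2a at day 5 (2.22) and Mat2b and Mtr at day 1 (6.39 and 8.22) under restriction, and 3 with stricter peaks, such as Mtr from day 0 to day 5 (-11.4). Centring removes the lower median of the restricted libraries by construction; for the other changes the cause was not tested.

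Replicate numbers do not pair the samples, since the correlation of same-numbered deviations was -0.439 to 0.0616 over 10 pairs of groups. With the replicate block the counts called were 466, 2457, 3436, 4175 and 399 in the order above, and the crossed pairing of day 0 with control day 1, added after the data were seen, gave 573. With the block Mtrr was called from day 0 to day 1 (-20.2 points, limma adjusted p = 0.0264), the only member whose call it changed. Under 4 other ways of taking cover, 60 of 140 WT group means of the members moved by over 1 SD. KO values have no SD, and 24 of 210 changed under 3 of these ways. Peak lists hold no depth, so how far short lists reflect few reads is not known.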
